A study of Mus musculus with 6 samples.

Results

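The genes described here carry the signals of insulin and the insulin-like growth factors (IGF), through PI3-kinase, AKT, FoxO factors, mTOR and AMPK, in glomerular endothelial cells (GEC) of mice. The members were 58 genes listed by name. Each was read by the probeset with the highest mean over the arrays among probesets assigned to that gene alone, and was kept if its linear signal reached 100 (6.64 on the log2 scale) in 3 or more arrays. Of the 58 genes 55 were measured, out of 12763 genes and 20661 probesets that passed the same filter. Irs1, an insulin receptor substrate, and the IGF binding protein Igfbp6 stayed below that level in 4 or more arrays, and Rps6kb1 was not analysed here.

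There were 3 db/db and 3 normal samples, all from mice 7 months old, with 1 Affymetrix whole-transcript array each. Both groups carried Tie2-GFP, a transgene in which the Tie2 promoter drives green fluorescence, and GFP positive cells were sorted from sieved glomeruli. The db/db mice (labelled Tie2-GFP/ DB/DB) carry a loss of function of the leptin receptor, with obesity and diabetes, and the normal mice are labelled Tie2-GFP/ +/+. The Tie2 promoter is also active in some blood-forming cells, and every cell of a db/db mouse carries the mutation. Strain, sex and the number of animals behind a sample are not given in the sources used here.

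Insulin and the IGFs bind receptor tyrosine kinases, which act through adaptor proteins on PI3-kinase and then on the kinase AKT. AKT keeps FoxO transcription factors out of the nucleus and releases the GTPase Rheb from the TSC complex, so that mTOR complex 1 can drive protein synthesis, while the energy sensor AMPK works against that step. In endothelium the pathway is known for its control of nitric oxide synthase, and loss of the insulin response of vessels is a known feature of type 2 diabetes. Much of the control lies in phosphorylation, which RNA arrays do not read.

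The 5 members whose difference between the groups passed an unadjusted p of 0.05 were the adiponectin receptor Adipor2, Rheb and the mTOR subunit Mlst8, with higher means in db/db GEC, and the adaptor Grb2 and the Rheb inhibitor Tsc2, with lower means. Their promoters are shown because FoxO factors, the transcriptional output of the pathway, bind a short known motif. Each line gives the 250 bases before the transcription start, from RefSeq (GRCm38.p6), read 5′ to 3′ on the gene's strand, which is the minus strand in each case. Capitals mark the FoxO core, GTAAAC or its reverse complement GTTTAC.
Adipor2 (chr6:119388735-119388984): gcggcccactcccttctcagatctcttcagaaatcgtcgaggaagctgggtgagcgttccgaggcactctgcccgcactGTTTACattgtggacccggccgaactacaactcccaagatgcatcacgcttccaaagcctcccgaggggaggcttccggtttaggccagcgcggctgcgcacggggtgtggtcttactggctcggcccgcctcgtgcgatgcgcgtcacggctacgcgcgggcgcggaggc
Tsc2 (chr17:24632628-24632877): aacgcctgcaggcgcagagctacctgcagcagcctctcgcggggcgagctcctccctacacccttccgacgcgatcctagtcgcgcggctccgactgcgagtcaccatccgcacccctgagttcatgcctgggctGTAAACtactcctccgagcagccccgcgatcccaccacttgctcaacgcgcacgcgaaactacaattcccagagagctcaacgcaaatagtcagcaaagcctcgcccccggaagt
Grb2, the second of 2 starts (chr11:115699535-115699784): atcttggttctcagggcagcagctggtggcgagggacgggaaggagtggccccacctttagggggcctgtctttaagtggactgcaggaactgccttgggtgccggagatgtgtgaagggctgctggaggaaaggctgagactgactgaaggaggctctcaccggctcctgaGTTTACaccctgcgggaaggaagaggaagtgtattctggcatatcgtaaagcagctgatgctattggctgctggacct
Rheb (chr5:24842362-24842611): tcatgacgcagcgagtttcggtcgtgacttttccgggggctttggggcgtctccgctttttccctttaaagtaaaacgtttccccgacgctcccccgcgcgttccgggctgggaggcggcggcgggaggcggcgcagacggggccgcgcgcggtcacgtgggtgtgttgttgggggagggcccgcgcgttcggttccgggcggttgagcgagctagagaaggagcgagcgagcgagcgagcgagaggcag
Mlst8 (chr17:24479079-24479328): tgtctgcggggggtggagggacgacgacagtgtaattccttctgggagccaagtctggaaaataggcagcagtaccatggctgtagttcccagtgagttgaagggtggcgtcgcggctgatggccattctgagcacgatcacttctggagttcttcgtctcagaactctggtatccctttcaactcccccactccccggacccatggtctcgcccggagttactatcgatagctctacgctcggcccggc

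The core lay 166 bases upstream of the start in Adipor2, 110 in Tsc2 and 73 in the second window of Grb2. It was not in the windows of Rheb and Mlst8, nor in the first window of Grb2. Over windows of 300 bases that also hold the first bases after the start, the core was found in 8 of 72 windows of the members (11.1%) and in 7.89% of all 32851 windows. These 8 windows belonged to Adipor1, Adipor2, Akt1, Grb2, Pdpk1, Pik3cg, Stk11 and Tsc2, among 50 members with a window. The longer form GTAAACA or TGTTTAC, which contains the core, was in 5 of the 72 windows (6.94%), Adipor2 among them, and in 3.65% of all windows. A match of letters is a description and not a binding site.

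The array medians lay between 7.00 and 7.04 on the log2 scale. Normal replicate 2 stood apart, as the highest or lowest of the 6 arrays for 44.4% of all probesets, against 28.1% to 35.5% for the other arrays, and for 30 of the 55 members (54.5%), against 14 to 18 members for the others. All 10 pan-endothelial markers were measured, and their summed linear signal was 57329 to 59560 in db/db and 56454 to 57823 in normal GEC. Within that sum Cdh5, Eng, Kdr and Pecam1 were higher in every db/db array (changes 0.21, 0.16, 0.097 and 0.070). Tek and Flt1 were lower in every db/db array (changes -0.33 and -0.12), and Tie1, Emcn, Esam and Erg overlapped between the groups. The sum of 5 glomerular endothelial markers was 14956 to 16604 in db/db, against 18298 to 20603 in normal GEC, whereas the sum over 7 markers with a probeset, 6 of them above the level, of peritubular, medullary and venous endothelium was 10243 to 14027, against 4421 to 4969. That list did not move as one: Aplnr, Gpihbp1 and Cd36 were higher in every db/db array (changes 3.15, 1.17 and 0.91), while Plvap, Nr2f2 and Vwf overlapped (changes 0.097, 0.21 and -0.014). Nor were the glomerular markers alike: Scn7a, Sema5a, Gata5 and Ehd3 were lower in every db/db array (changes -2.65, -0.59, -0.28 and -0.10). Nostrin overlapped between the groups (change 0.12). Globin probesets, which mark red blood cells, were lower in db/db GEC by log2 changes of -2.07 to -1.77. These shifts move with every comparison of the groups below, and their part in the results was not tested. In such bulk samples fewer cells of a type and less RNA per cell cannot be told apart.

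The question put to these arrays was which members differ between diabetic and normal glomerular endothelium. With limma and Benjamini-Hochberg adjustment over all probesets, 0 of the 55 members passed an adjusted p of 0.05, and 0% of the 20661 probesets did (smallest adjusted p = 0.616 among the members, for Adipor2). At an unadjusted p under 0.05, 3 members (5.45%) were higher in db/db GEC, where 3.48% of all probesets and 3.49% of genes were. In the other direction 2 members (3.64%) were lower, where 2.91% of probesets and 3.07% of genes were. Both shares lay near the background.

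The arrays were also compared without a model. In 4 members (7.27%) every db/db array lay above every normal array, as it did for 7.01% of probesets and 7.39% of genes. In 6 members (10.9%) every db/db array lay below every normal array, against 5.31% of probesets and 5.92% of genes, a difference that was not tested. At a level of 200, which 45 members passed, 3 members lay above and 4 below in this way, against 6.93% and 6.09% of probesets. The screen stated in the study's methods, a t-test p under 0.05 with over 1.5-fold change, took 1 member up (Adipor2) and 0 down, where it took 0.871% of probesets up and 0.644% down. Means were higher in db/db GEC for 24 members and lower for 31, with a median log2 change of -0.028, and of 0.014 over all probesets. The median absolute change was 0.166 for the members, against 0.118 for all probesets and 0.108 for genes, a difference that was not tested. The median standard error was 0.142 for the members, against 0.141 for all probesets and 0.131 for genes. For 34 of the 55 members the 95% interval of the change excluded a 1.5-fold difference in either direction.

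**Figure D1:**
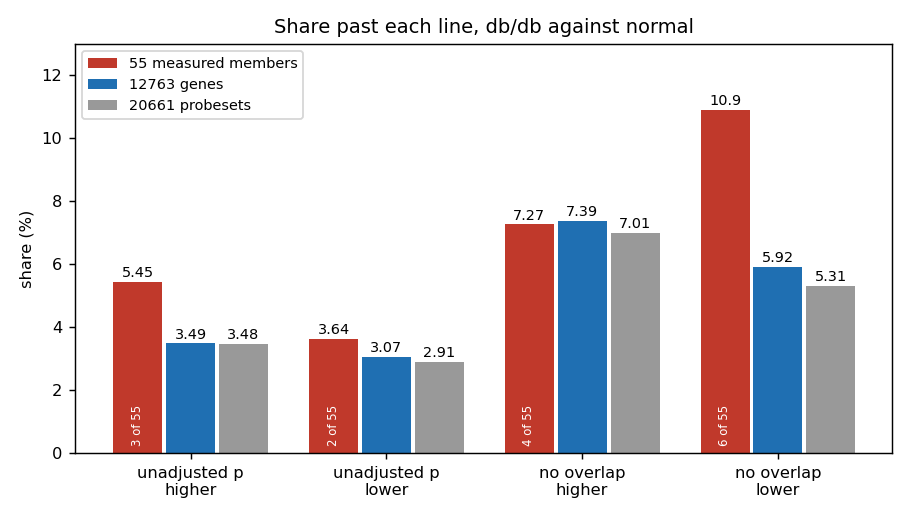
Share of the 55 measured members (left bar of each set), of genes and of probesets (%, linear axis from 0) past each of 4 lines, db/db against normal, with the number of members written in its bar. The members lie at 3.64% to 7.27% for the first 3 sets and at 10.9% for those with all db/db arrays below all normal arrays.

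Values in single arrays are log2 probeset signal in the order of replicates 1 to 3, changes are log2 differences of db/db minus normal with limma's standard error (SE), and p is unadjusted unless named otherwise. Levels of different genes are not comparable on this scale, since each probeset has its own response. Because 3 against 3 arrays cannot reach a two-sided exact permutation p below 0.1, no single gene was tested that way.

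Among the ligands, Igf1, the main circulating growth factor of the family, had 7.36, 6.37 and 6.68 in db/db GEC, against 6.35, 6.90 and 6.43 in normal GEC. It reached the level of 100 in only 3 of the 6 arrays, of both groups, and the groups overlapped (change 0.24, SE 0.29, and -0.033 without db/db replicate 1). Igf2, the fetal growth factor, had 7.41, 7.47 and 7.53 in db/db, against 7.48, 7.25 and 7.15 in normal GEC. Only normal replicate 1 reached into the db/db range (change 0.18, SE 0.11, limma adjusted p = 0.843).

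The insulin receptor Insr had 12.00, 12.10 and 12.17 in db/db GEC, against 11.90, 12.41 and 12.19 in normal GEC. The db/db arrays lay within the normal range, and the change was -0.075 with a 95% interval of -0.44 to 0.29. A second Insr probeset gave a change of -0.20 (SE 0.22). Igf1r, the receptor for IGF1, had 8.35, 8.46 and 8.68 in db/db, against 8.52, 9.15 and 8.87 in normal GEC. Normal replicate 2 was the highest array and normal replicate 1 overlapped the db/db samples, with a change of -0.35 (SE 0.19, limma adjusted p = 0.825). The change was -0.20 without normal replicate 2, and -0.51, past the unadjusted line, without normal replicate 1.

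Igf2r, which clears IGF2 by carrying it to lysosomes, had 9.28, 9.01 and 9.26 in db/db GEC, against 8.70, 8.66 and 9.09 in normal GEC. Normal replicate 3 lay above db/db replicate 2, and leaving out either separated the groups (change 0.37, SE 0.15, limma adjusted p = 0.783). Of the substrates that carry the receptor signal, Irs2 had 7.30, 7.35 and 7.32 in db/db, against 7.39, 7.53 and 7.32 in normal GEC. Its change was -0.090 (SE 0.086), with overlap at normal replicate 3. The 2 probesets of Irs1 lay between 5.73 and 6.19 in all arrays, below the level used here. Shc1, an adaptor towards the MAP kinases, had a change of 0.13 with a wide SE of 0.30.

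Grb2, the adaptor that links receptors to Ras, had 8.73, 8.81 and 8.53 in db/db GEC, against 9.01, 9.09 and 8.90 in normal GEC. The groups did not overlap, with a gap of 0.09 between the nearest arrays (change -0.31, SE 0.11, limma adjusted p = 0.752). Its p passed 0.05 when normal replicate 3 or db/db replicate 2 was left out, and not without any 1 of the other 4 arrays (p up to 0.088). Of the proteins that restrain the receptors, Grb14 had 6.56, 6.68 and 6.62 in db/db, against 6.74, 7.32 and 6.70 in normal GEC. All db/db arrays were lower, by a gap of 0.015, and normal replicate 2 carried much of the mean difference (change -0.30, SE 0.18, and -0.095 without that array). The related Grb10 had a change of -0.21 (SE 0.15), and Ptpn1, the phosphatase PTP1B that removes phosphate from the insulin receptor, one of -0.061 (SE 0.14).

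IGF binding proteins hold IGFs outside the cell and set how much reaches the receptors. Igfbp7, which differs from the others in its weak binding of IGFs and marks vessels, showed the largest change of the 55 members. It had 8.44, 9.70 and 8.29 in db/db GEC, against 8.04, 7.49 and 8.39 in normal GEC. The groups overlapped, db/db replicate 2 was far above the rest, and the change of 0.84 had an SE of 0.44 (fold 1.79, limma adjusted p = 0.825). Without db/db replicate 2 the change was 0.40.

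Igfbp3, the main carrier in serum, had 8.60, 8.38 and 8.42 in db/db, against 8.39, 7.59 and 8.21 in normal GEC. One normal array lay just inside the db/db range and normal replicate 2 was the lowest (change 0.40, SE 0.22, limma adjusted p = 0.835). Without normal replicate 2 the change was 0.17, and without normal replicate 1 it was 0.56, just past the unadjusted line. Igfbp5, which binds both IGFs and matrix, had 12.93, 12.84 and 12.77 in db/db GEC, against 13.12, 13.03 and 12.94 in normal GEC. Every db/db array was lower, by a gap of 0.013 between db/db replicate 1 and normal replicate 3, and the change of -0.18 (SE 0.090) did not pass (limma adjusted p = 0.82).

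Igfbp4, an inhibitor of IGF action, had 8.62, 8.44 and 8.64 in db/db, against 8.52, 8.45 and 8.52 in normal GEC. Igfbp2, whose gene is the direct neighbour of Igfbp5 on chromosome 1, had 6.62, 6.66 and 6.65 in db/db GEC, against 6.59, 6.79 and 6.49 in normal GEC. The changes were 0.074 (SE 0.089) for Igfbp4 and 0.017 (SE 0.10) for Igfbp2, both with overlapping groups, and Igfbp2 reached the level in 3 arrays only. Igfbp6 lay at 6.52 to 6.64 in db/db and 6.42 to 6.56 in normal GEC and was not tested.

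PI3-kinase pairs a catalytic subunit, which makes the lipid signal PIP3, with a regulatory subunit that docks on the receptor complex. Pik3r3, the regulatory subunit p55 gamma, had 12.40, 12.37 and 12.46 in db/db GEC, against 12.09, 11.89 and 12.33 in normal GEC. The groups did not overlap, by a gap of 0.038 from normal replicate 3 (change 0.31, SE 0.13, limma adjusted p = 0.783). The main regulatory subunit Pik3r1 had 9.96, 9.97 and 9.90 in db/db, against 9.95, 9.70 and 9.73 in normal GEC. Its db/db arrays were all high and close to each other, with normal replicate 1 among them (change 0.15, SE 0.099). Pik3r2, a further regulatory subunit, had a change of -0.058 (SE 0.096).

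Of the catalytic subunits, Pik3ca, the broadly used alpha form, had 9.56, 9.99 and 9.75 in db/db GEC, against 9.98, 10.23 and 9.66 in normal GEC. The ranges overlapped widely (change -0.19, SE 0.19). Pik3cd, the delta form best known from leukocytes, had 6.72, 6.52 and 6.71 in db/db, against 6.87, 6.76 and 6.90 in normal GEC. Its groups did not overlap, by 0.049 (change -0.19, SE 0.094, limma adjusted p = 0.818), and it reached the level of 100 in 5 of 6 arrays. Pik3cb changed by 0.029 (SE 0.098) and Pik3cg, the gamma form of leukocytes, by 0.23 (SE 0.21). Of 10 listed leukocyte markers 9 had a probeset, with a summed linear signal of 975 to 1170 in db/db and 979 to 1671 in normal GEC. The upper end of the normal range came from normal replicate 2, where Cd14 was 9.97, against 8.70 and 8.43 in normal replicates 1 and 3. The markers Ptprc, Cd79a, Itgam, Csf1r, Lyz2 and Adgre1 were below the level, though Lyz2 reached it in 2 arrays, both db/db. Of the 3 above it, Cd68, of macrophages, was higher in every db/db array (change 0.76, SE 0.27, limma adjusted p = 0.752), Cd14 was lower in every one (change -0.71, SE 0.41), and Cd3e overlapped (change -0.11, SE 0.16). Their part in the values of Pik3cd and Pik3cg was not tested.

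Downstream of PIP3, Akt1, the main AKT of endothelium, had 8.50, 8.58 and 8.70 in db/db GEC, against 8.71, 8.33 and 8.82 in normal GEC. The db/db arrays lay inside the normal range, and the 95% interval of the change was -0.40 to 0.35. Akt2, the form tied to glucose uptake in muscle and fat, had 9.09, 9.49 and 9.41 in db/db, against 8.50, 9.38 and 9.28 in normal GEC. The low normal replicate 1 set its change of 0.28 (SE 0.26), which was 0.0017 without that array, and a second probeset gave 0.10 (SE 0.25).

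Pdpk1, the kinase PDK1 that activates AKT, changed by -0.13 (SE 0.24). The phosphatases that end the signal, Inpp5d (SHIP1), Inppl1 (SHIP2) and Phlpp1, which acts on AKT itself, had changes of 0.11 (SE 0.12), -0.061 (SE 0.13) and -0.21 (SE 0.18). None of these members separated the groups. Inpp5d is best known from leukocytes, whose markers are given above.

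Of the FoxO transcription factors, Foxo1, the one that curbs endothelial growth, had 10.06, 9.95 and 10.18 in db/db GEC, against 9.95, 10.25 and 10.01 in normal GEC. Its means were almost equal (change -0.0029, 95% interval -0.29 to 0.29). Foxo3 had 7.92, 8.12 and 7.94 in db/db, against 8.20, 8.19 and 8.18 in normal GEC. The normal arrays were tight and all above the db/db arrays, by a gap of 0.056 (change -0.20, SE 0.088, limma adjusted p = 0.795). Foxo4 changed by -0.062 (SE 0.098). The GSK3 kinases, which AKT inhibits, had changes of -0.17 (Gsk3a, SE 0.12) and 0.17 (Gsk3b, SE 0.14), with overlapping groups in both.

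Of the 9 measured members of the TSC and mTOR branch, 2 were higher and 1 was lower at the unadjusted line, against 3.49% and 3.07% of all genes. Whether the branch differs from the other members was not tested. Tsc2, the part of the TSC complex that switches Rheb off, had 8.52, 8.67 and 8.47 in db/db GEC, against 8.82, 8.88 and 8.99 in normal GEC. All db/db arrays were lower, by a gap of 0.15 (change -0.34, SE 0.095, fold 0.79, limma adjusted p = 0.648). Rheb, the GTPase that Tsc2 holds back, had 11.69, 11.77 and 11.56 in db/db, against 11.47, 11.40 and 11.43 in normal GEC. All db/db arrays were higher, by a gap of 0.085 (change 0.24, SE 0.088, fold 1.18, limma adjusted p = 0.754).

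Mlst8, a subunit of both mTOR complexes, had 7.28, 6.97 and 7.27 in db/db GEC, against 6.73, 6.86 and 6.89 in normal GEC. The groups were apart by 0.075, with db/db replicate 2 nearest to the normal arrays (change 0.34, SE 0.12, fold 1.27, limma adjusted p = 0.746). Its gene lies on chromosome 17 with 4 protein-coding genes between it and Tsc2, which differed in the other direction. Tsc1, the partner that stabilises Tsc2, had means of 8.19 in db/db and 8.19 in normal GEC.

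The kinase Mtor itself had 8.74, 9.04 and 8.66 in db/db GEC, against 8.73, 9.07 and 8.67 in normal GEC, and the 2 sets nearly coincided (change -0.015, 95% interval -0.40 to 0.37). Rptor, which defines mTOR complex 1, had 7.92, 7.67 and 8.03 in db/db, against 8.17, 8.23 and 8.03 in normal GEC. Only db/db replicate 3 reached the lowest normal array (change -0.27, SE 0.12, limma adjusted p = 0.805). Rictor, which defines the other complex, had 9.19, 9.15 and 9.35 in db/db GEC, against 9.01, 9.76 and 9.41 in normal GEC, with wide overlap (change -0.17, SE 0.20).

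The mTOR inhibitors Akt1s1 (PRAS40) and Deptor had changes of 0.10 (SE 0.099) and -0.14 (SE 0.18). Among the targets of mTOR complex 1, which turn its signal into translation, the S6 kinase Rps6kb2 changed by 0.028 (SE 0.17) and the translation repressors Eif4ebp1 and Eif4ebp2 by 0.042 (SE 0.10) and -0.21 (SE 0.12). Each of these 5 members had overlapping groups.

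AMPK consists of a catalytic alpha, a beta and a gamma subunit and is switched on by the kinase LKB1, the product of Stk11. Adipor1 and Adipor2 are receptors for adiponectin, a hormone of fat cells. Adipor2 had 8.84, 8.42 and 8.26 in db/db GEC, against 7.98, 7.82 and 7.81 in normal GEC. Every db/db array was higher, by a gap of 0.28, the widest among the members (change 0.64, SE 0.17, fold 1.55, limma adjusted p = 0.616). Its 95% interval was 0.23 to 1.05, and 5.65% of all probesets had a larger absolute change.

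Adipor1 had 9.65, 9.76 and 9.80 in db/db, against 9.78, 9.74 and 9.72 in normal GEC. The groups overlapped in full, with a change of -0.014 (95% interval -0.21 to 0.19). Whether the changes of the receptors differ from each other was not tested. Of 4 adipocyte markers, Adipoq, Cidec and Lep were below the level. Plin1, which coats lipid droplets, was measured in all 6 arrays and was higher in every db/db array, by a gap of 0.039 (change 0.20, SE 0.088, limma adjusted p = 0.797), and its part in the values of Adipor2 was not tested.

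Stk11 had 9.78, 9.84 and 9.89 in db/db GEC, against 9.86, 9.88 and 9.97 in normal GEC, with overlap (change -0.064, SE 0.080). The catalytic subunit Prkaa1 had 10.63, 10.72 and 10.34 in db/db, against 10.80, 10.50 and 10.83 in normal GEC, also with overlap (change -0.15, SE 0.15). The other alpha subunit, Prkaa2, changed by -0.32 (SE 0.28). Its gene lies on chromosome 4 with 20 protein-coding genes between it and Lepr, the mutated leptin receptor. Flanking sequence inherited with the mutation and the diabetic state therefore cannot be told apart. Pik3r3, Mtor and Pik3cd lie farther from Lepr on the same chromosome, with 131, 652 and 673 such genes between. Whether flanking sequence reaches these genes was not tested.

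The beta subunit Prkab2 had the largest negative change of the members, with 7.87, 8.70 and 8.98 in db/db GEC, against 9.39, 8.98 and 8.92 in normal GEC. Here db/db replicate 1 was the lowest array and the groups overlapped (change -0.57, and -0.25 without that array, SE 0.31, limma adjusted p = 0.831). Prkab1 changed by -0.043 with an SE of 0.29, Prkag1 by 0.0035 (SE 0.21) and Prkag2, the direct neighbour of Rheb on chromosome 5, by 0.16 (SE 0.20).

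**Figure D2:**
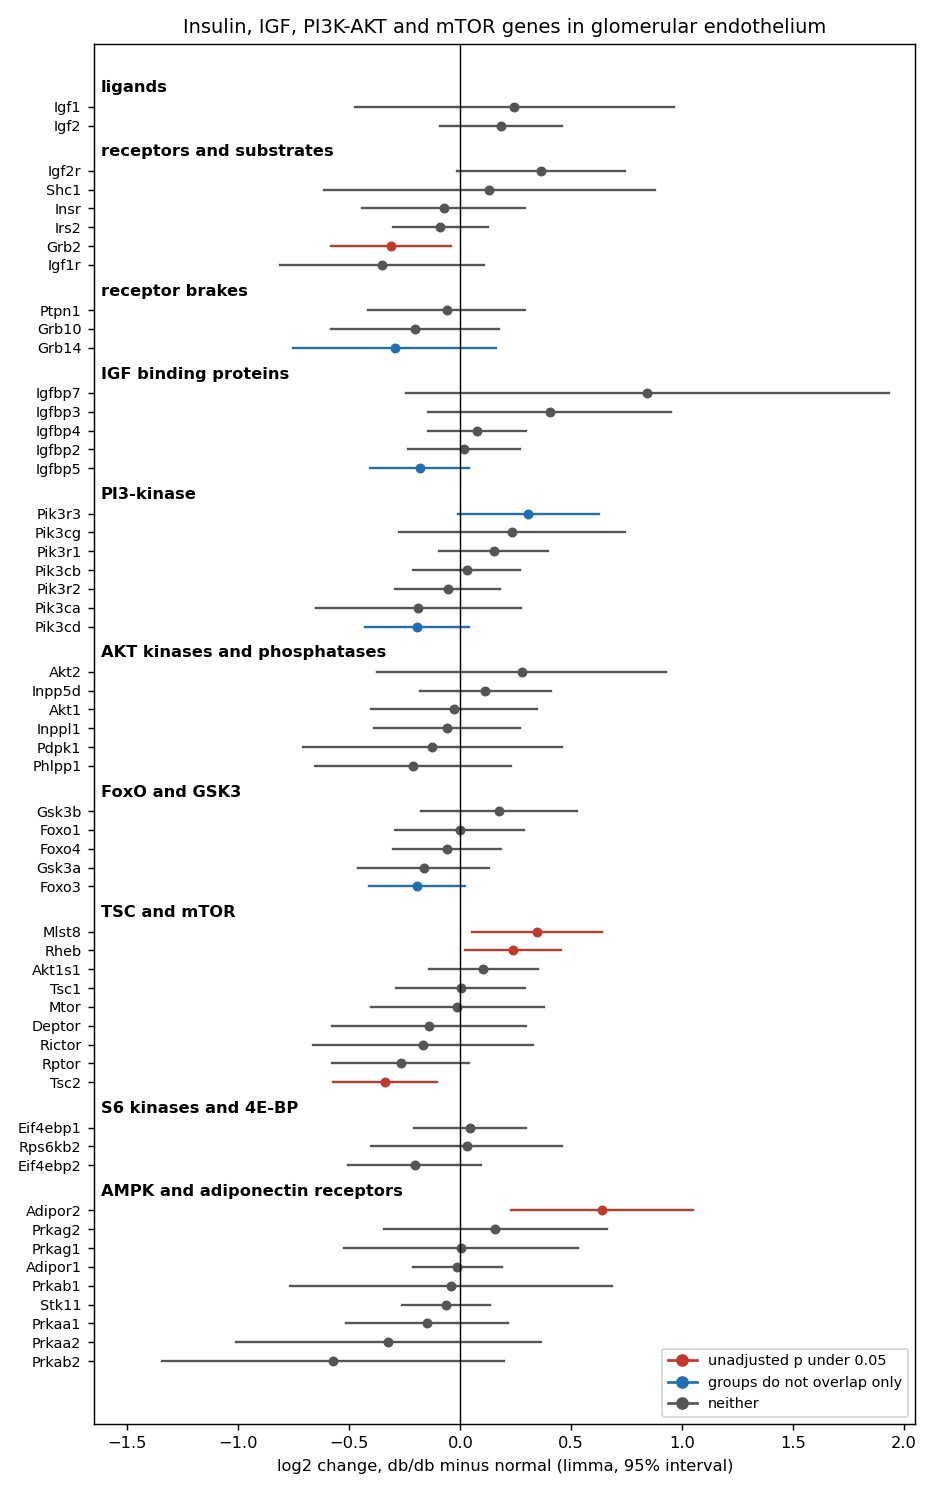
Log2 change, db/db minus normal, of the 55 measured members (points) with limma's 95% interval (lines), grouped by role from ligands at the top to AMPK at the bottom, in red where the unadjusted p is under 0.05, in blue where only the groups do not overlap and in grey otherwise. Igfbp7 at 0.84 and Adipor2 at 0.64 lie farthest to the right, and only 5 intervals leave out 0.

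**Figure D3:**
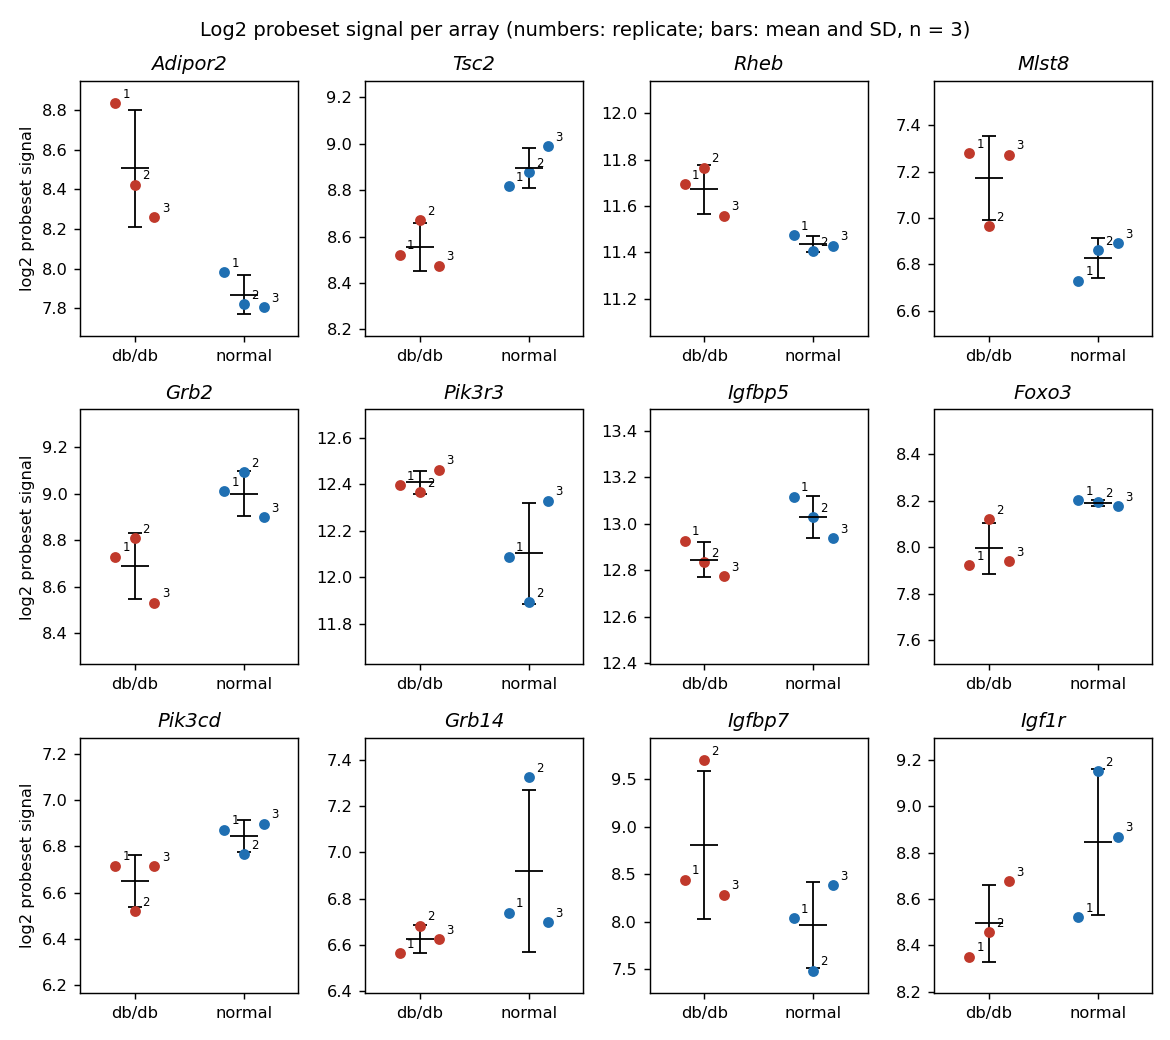
Log2 probeset signal in each array (points, with replicate numbers) of 12 members in db/db (left, red) and normal GEC (right, blue), and as bars the mean and SD of each group's 3 arrays and an axis range of its own for each gene. The groups are apart in the first 10 panels, by 0.28 in Adipor2 and by 0.013 in Igfbp5, and overlap in Igfbp7 and Igf1r.

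The 5 members past the unadjusted line differed in how far that rested on single arrays and settings. Over 18 other settings, 6 of them leaving out 1 array, Adipor2 and Tsc2 passed an unadjusted p of 0.05 in all 18. The settings reuse the same arrays, and the 5 members were picked because they passed that line. Staying past it is therefore no independent support, and the share of all probesets that did so was not counted. The change of Adipor2 ran from 0.47 to 0.76 and that of Tsc2 from -0.40 to -0.29. Grb2 passed in 14 settings, Mlst8 in 12 of 17 that measured it, and Rheb in 10. With 1 array left out, Rheb passed only where that was db/db replicate 3 (p up to 0.115 otherwise), and Mlst8 only where it was db/db replicate 2 or normal replicate 3 (p up to 0.0889 otherwise). Without normal replicate 2, the array that stood apart, 2 members were higher (Adipor2 and Pik3cg) and 1 was lower (Tsc2) at that line. Of all probesets 3.27% were higher and 3.20% lower there. No member reached an adjusted p of 0.05 in any of the 18 settings.

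**Figure D4:**
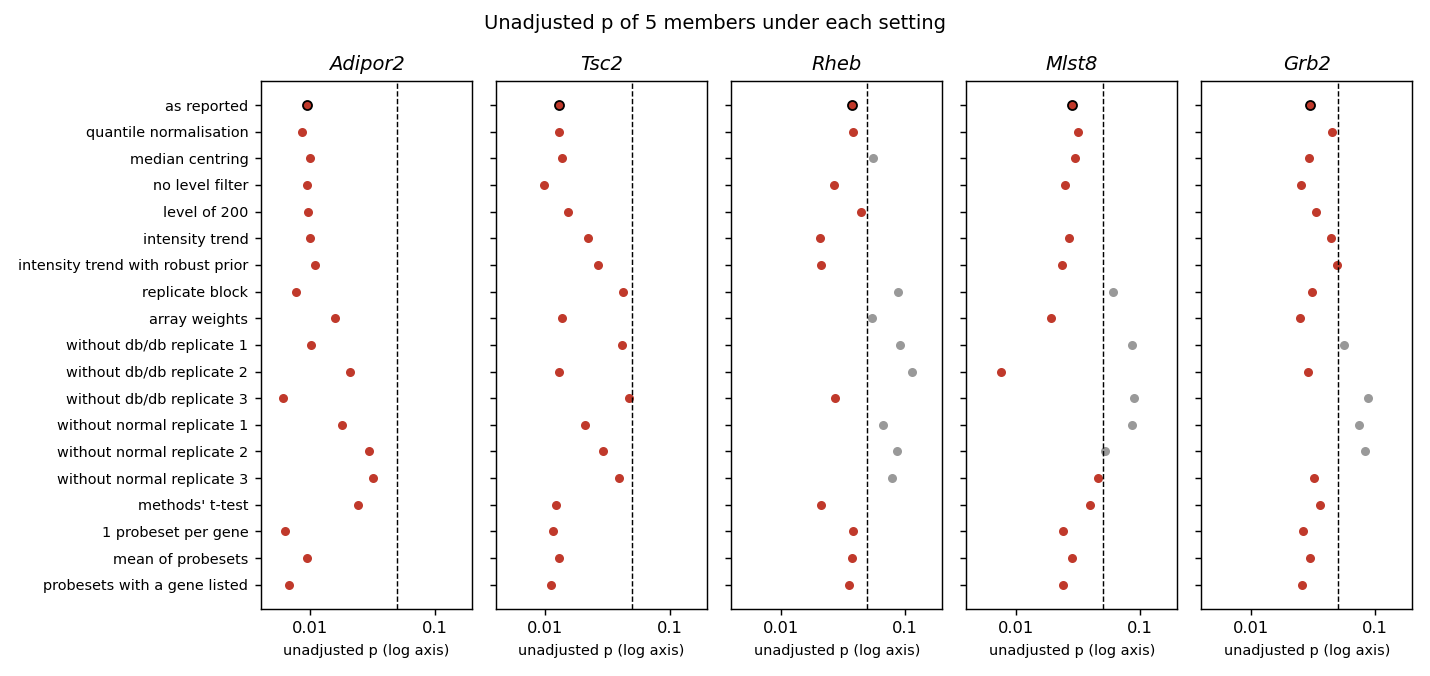
Unadjusted p (log axis) of Adipor2, Tsc2, Rheb, Mlst8 and Grb2 as reported (top, ringed) and under 18 other settings, in red where it is under 0.05 (dashed line) and in grey where it is not. All points of Adipor2 and Tsc2 lie left of the line, and Rheb crosses it in 8 settings.

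A further 65 genes of the pathway were listed by name, of which 52 were measured, with a median change of -0.0073. At an unadjusted p under 0.05, 3 were higher in db/db GEC and 1 was lower, against the background of 3.49% and 3.07% of genes, and 0 passed the adjusted test. Sesn2, a stress-induced inhibitor of mTOR complex 1, had 7.04, 6.88 and 7.01 in db/db, against 6.60, 6.62 and 6.52 in normal GEC (change 0.40, SE 0.084, limma adjusted p = 0.513). All its normal arrays were below the level of 100, so that it entered the test through the db/db arrays alone and had to differ, and the 3 higher genes include it. Ddit4 (REDD1), another stress-induced inhibitor that acts through the TSC complex, had 8.01, 7.83 and 7.99 in db/db GEC, against 7.69, 7.58 and 7.49 in normal GEC (change 0.36, SE 0.096, limma adjusted p = 0.626).

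Ddit4 had every db/db array above every normal array. Trib1, a pseudokinase, also was higher in all db/db arrays (change 0.42, SE 0.10, limma adjusted p = 0.581), and the adaptor Gab1 was lower in all of them (change -0.27, SE 0.10, limma adjusted p = 0.754). Rragd, a GTPase that brings mTOR to lysosomes, overlapped between the groups (change -0.43, SE 0.21, limma adjusted p = 0.822).

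Of 30 listed FoxO target genes 24 were measured, with a median change of -0.0026, and 12 had higher and 12 lower means in db/db GEC. The list was not divided by whether FoxO factors raise or lower a gene, so these values do not measure FoxO activity. At the unadjusted line 2 were higher and 1 was lower, against 3.49% and 3.07% of all genes, and 0 passed the adjusted test. Tnfsf10, which encodes the death ligand TRAIL, had 11.06, 10.15 and 10.30 in db/db, against 9.48, 9.06 and 9.63 in normal GEC. All db/db arrays were higher (change 1.11, SE 0.28, limma adjusted p = 0.601). Klf4, a transcription factor of quiescent endothelium, had 8.96, 9.04 and 9.02 in db/db GEC, against 9.84, 9.52 and 9.58 in normal GEC. It was lower in every db/db array, by a gap of 0.48 (change -0.64, SE 0.11, limma adjusted p = 0.376). The other target past the line was Trib1, which is in both lists. Klf2, the related flow-responsive factor, had a change of -0.22 (SE 0.10, limma adjusted p = 0.814), and Bnip3, a mitophagy receptor, one of -0.25 (SE 0.16). Several of these genes are also induced by stress or flow.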

How the data were processed

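RNA of sorted GEC was amplified and measured on 6 Affymetrix Mouse Gene ST arrays, and the values the authors deposited are log2 probeset signals. The methods give RMA (GeneSpring) as the normalisation and the submitters' processing notes give MAS5. The arrays have nearly equal distributions, so each change is relative to the rest of its array, and precision is limited by having 3 arrays a group. Of 35557 probesets the annotation gave 21789 a single symbol, and 20661 passed the level filter of the methods.

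Groups were compared with limma 3.58.1 in R 4.3.3 (lmFit and eBayes, two-sided, Benjamini-Hochberg over 20661 probesets, tested on simulated data), and figures drawn with matplotlib 3.10.9. The members and lists were chosen with earlier results of these data known. Values in every array are given for members past an unadjusted p of 0.05, for those whose groups do not overlap and for a fixed set of core genes and all IGF binding proteins, and up to 5 genes of each further list were named by smallest p. The values of Igf2r and Prkab2 were added after they were seen. The 18 other settings were median centring, quantile normalisation, a level of 200 or none, array weights, a replicate block, an intensity trend (alone or with a robust prior), leaving out each array, the methods' t-test, 1 probeset per gene, the mean of probesets and, chosen after seeing the data, only probesets with a gene listed.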

Additional observations from a re-analysis of the deposited data

How the results depend on the processing

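Among the 55 members the count past an adjusted p of 0.05 was 0 under each of the 18 settings, with a smallest adjusted p between 0.463 (1 probeset per gene) and 0.825 (without db/db replicate 3). The count higher at an unadjusted p of 0.05 was 5 with 1 probeset per gene and 5 over probesets with a gene listed, an alternative chosen after seeing the data, where Igf2r and Pik3r3 joined, against 4.11% and 3.92% of all features. With 1 array left out it ran from 1 (without db/db replicate 1) to 4, against 2.74% to 3.996% of all probesets, and the count lower from 1 (without normal replicate 2) to 4, against 2.32% to 3.20%. The members whose groups do not overlap numbered 6 to 8 higher and 8 to 11 lower with 1 array left out (11.3% to 13.2% and 9.31% to 11.4% of all probesets), where fewer arrays separate more easily by construction. Of the 55 members 19 turned direction with some array left out, in a comparison of means chosen after seeing the data, Tsc1 (-0.087 to 0.10) and Igf1 among them. In the fits of the 30 members followed through all settings 7 turned. With 1 array left out, Akt1 ran from -0.17 to 0.073, Adipor1 from -0.045 to 0.030 and Insr from -0.21 to 0.046. Foxo1 ran from -0.064 to 0.088, Mtor from -0.13 to 0.11 and Rictor from -0.36 to 0.015. Igfbp2 passed the level in only 3 of these fits and ran there from -0.050 to 0.029. Its difference of means without normal replicate 2 was 0.0996. Quantile normalisation gave 0.010 for Foxo1 and 0.0064 for Adipor1, and array weights gave 0.022 for Insr, 0.056 for Foxo1 and 0.014 for Mtor. The cause was not tested.

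The labels number the replicates without pairing them, and same-numbered arrays did not deviate together (r = -0.0039, 0.035 and -0.030). With the replicate block 2 members were higher (Adipor2 and Igf2r) and 2 lower (Grb2 and Tsc2) at an unadjusted p of 0.05. In that fit 3.30% of all probesets were higher and 2.93% lower at the same line, and 0 members passed when adjusted. Genes near the level of 100, such as Igf1, Igfbp2 and Grb14, were tested under fewer settings because they left the filter. With 3 arrays a group the intervals of 21 of the 55 members still allow a 1.5-fold change.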
